A study of Mus musculus with 768 samples.

Results

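The single muscle stem cells of the deposited count table were split by the reads of one gene, *Myf5*. A cell was placed in the first group when at least 1 read was assigned to *Myf5*, and in the second when none was. The first group held 273 cells and the second 104, which together were all the cells in the table. Because the groups were chosen by measured *Myf5* reads, *Myf5* values are given as a description, and all comparisons concern other genes or other properties of the cells.

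The cells came from the tibialis anterior muscles of 6 *Tg:Pax7-nGFP* mice, in which a nuclear green fluorescent protein is placed under the control of *Pax7* regulatory sequences. Of these, 4 mice (Y4, Y5, Y7 and Y8) were young, labelled 2 months, and 2 mice (O1 and O5) were old, labelled 24 months. All cells were sorted as nGFP Hi, the top 10% by fluorescence, from muscle that had been digested, frozen and thawed. The sort therefore selected for the reporter of *Pax7* in both groups, and other muscle stem cells were not analysed here. Each mouse supplied cells of both groups, so the groups were compared within each mouse and the mouse was the replicate. Cells without *Myf5* reads numbered 12 in Y4, 10 in Y5, 19 in Y7, 15 in Y8, 27 in O1 and 21 in O5. Values of that group in a single mouse rest on these few cells.

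*Myf5* encodes a basic helix-loop-helix transcription factor, one of the myogenic regulatory factors together with *Myod1*, *Myog* and *Myf6*. It is expressed in most satellite cells, the stem cells that lie between the muscle fibre and its basal lamina. In quiescent cells its transcript is held back from translation in ribonucleoprotein granules, and the paired-box factor *Pax7* acts upstream of the gene. Quiescence itself is maintained by Notch signalling and by the calcitonin receptor, and is lost quickly once cells are taken out of their niche, when a wave of early-response transcription factors appears.

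Cells held between 101755 and 626142 reads on genes (median 272816) and between 1015 and 3411 detected genes. No cell shared its counts with another. The stem cell markers were widely detected, with *Sdc4* in 376 cells, *Chodl* in 366, *Pax7* in 339 and *Vcam1* in 280. Of the markers of other cells in the muscle, several that define a cell type were near 0 in both groups. *Pecam1*, an endothelial gene, was read in 1 cell, *Ptprc* of leukocytes in 1, *Rgs5* of mural cells in 9, *Acta1* of the muscle fibre in 3, and *Pdgfra* of fibro-adipogenic cells and *Tnmd* of tendon cells in 0. The summed level of the 10 endothelial markers ranged over mice from 1.69 to 102 RPM (reads per 1000000 reads on genes) in cells with *Myf5* reads and from 0 to 109 in cells without. That of the 11 haematopoietic markers ranged from 0.93 to 28.4 and from 0.121 to 41.6. Other markers on these lists were read more often. Among the 10 fibro-adipogenic markers these were *Gsn* and *Dpt*, in 312 and 290 cells. The mural list held *Des* (342 cells), *Notch3* (264), *Acta2* (64 cells with and 20 without *Myf5*) and *Tagln* (60 and 18), and summed to 1960 to 3544 RPM in cells with *Myf5* and 1881 to 3278 in cells without. The fibre gene *Tnnt1* was read in 79 cells and *Pmp22* of the Schwann list in 195.

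*Myf5* itself spanned 3 orders of magnitude among the cells that had it. Over the 273 cells the reads ran from 1 to 2616, with a median of 77. Relative to depth this was a median of 302 RPM and a highest value of 5527. The gene lies on chromosome 10, minus strand (GRCm38 chr10:107482908-107486134). Just inside the threshold, 17 cells had 1 read, 9 had 2 and 9 had 3, and 56 cells had fewer than 10 reads. A further 97 cells had 10 to 99 reads, 111 had at least 100 but fewer than 1000, and 9 had 1000 or more. Just outside it, the 104 cells without a read held 102044 to 534276 reads in all. A count of 0 in these cells allows a level of up to 29.4 RPM in the shallowest and 5.62 RPM in the deepest, taking 3 reads as the limit. The 17 cells with a single read stood at 2.16 to 9.16 RPM, so the lowest members of the first group could not be separated from the second by depth. Reads amplified by PCR are not separate molecules, and such limits and the intervals given next cover counting error only.

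**Figure D1:**
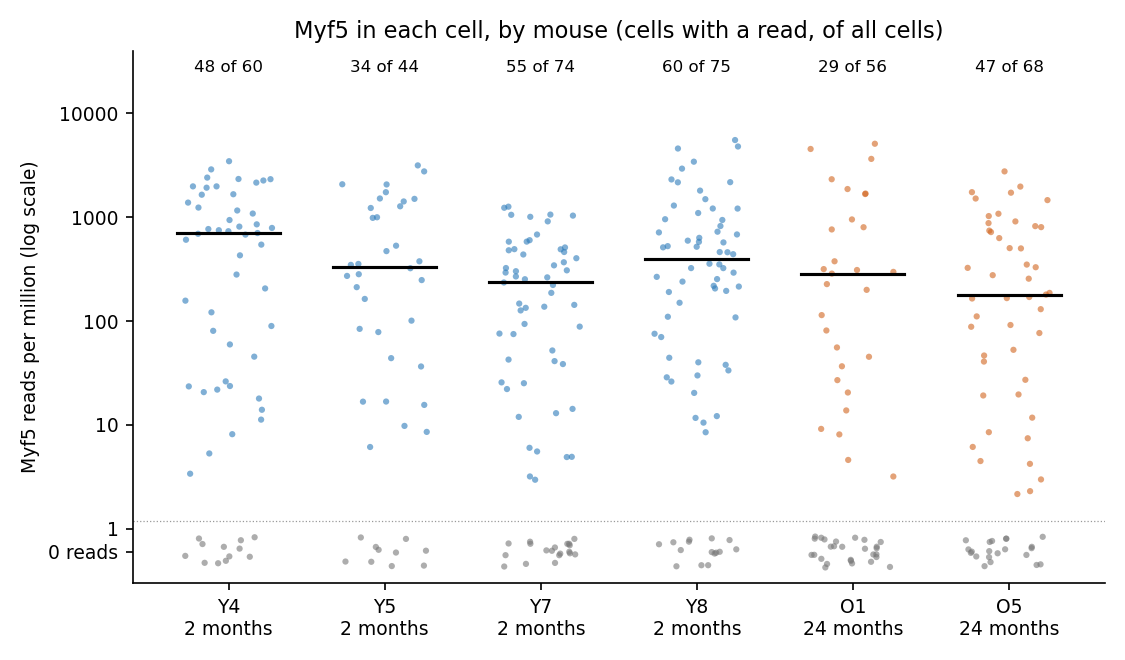
Myf5 RPM in each cell on a log scale, by mouse, with young mice in blue and old mice in orange. Cells without a read are grey and drawn in a strip below the dotted line, horizontal bars are the median of cells with a read, and the numbers above count cells with a read, from 29 of 56 in O1 to 48 of 60 in Y4 and 60 of 75 in Y8.

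*Myf5* was read in a smaller share of the cells of both old mice than of any young one. Young mouse Y4 had a read in 80% of its cells (95% exact binomial interval 67.7 to 89.2), Y5 77.3% (62.2 to 88.5), Y7 74.3% (62.8 to 83.8) and Y8 80% (69.2 to 88.4). Old mouse O1 stood at 51.8% (38 to 65.3) and old mouse O5 at 69.1% (56.7 to 79.8). The mean was 77.9% ± 2.71 (SD, n = 4) in young and 60.5% ± 12.3 (SD, n = 2) in old mice. The order held when each cell was thinned to 100000 reads, at 75.1% ± 3.23 against 53.4% ± 9.80, and among cells with at least 200000 reads, at 78.7% ± 2.06 against 60.7% ± 15.2. With a minimum of 10 reads it was 64.1% ± 5.96 against 42.9% ± 10.1. Within lane 2, which held Y7 and both old mice, Y7 stood above both. After thinning, genes detected in cells with *Myf5* had medians of 1429 in O1, 1703 in O5 and 1732 to 2324 in young mice. In cells without *Myf5* the medians were 1532, 1649 and 1621 to 2155. The paper reports a lower frequency of expression with age over genes in general, and no significant age difference in *Myf5* level. Whether the lower share is particular to *Myf5* was not tested. These shares chose the groups and were not tested.

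Among cells that had *Myf5*, the level overlapped between ages. The median ranged from 235 to 698 RPM over young mice and was 286 in O1 and 180 in O5, so O1 had the smallest share of cells with a read but a median inside the young range. The plot of *Myf5* by cell shows the same long spread of levels in every mouse.

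Depth and the number of genes detected had higher means in cells with *Myf5* reads, by differences that did not pass a test. A test over 6 mice cannot show that the groups were equal. The median of genes detected per cell ranged over mice from 1541 to 2467 in cells with *Myf5* reads and from 1632 to 2260 in cells without, with means of 1972 and 1859. It was higher with *Myf5* in 5 of 6 mice, and lower in O1 (1541 against 1632). The mean difference was 113 ± 120 genes (SD, n = 6), which did not pass an exact two-sided sign-flip permutation test over the mice (p = 0.094, smallest possible 0.031). After thinning to 100000 reads it was 83.6 ± 110 genes (exact sign-flip p = 0.125). Reads on genes per cell had means of 272932 and 256272 and were higher in 4 of 6 mice (exact sign-flip p = 0.25). The share of reads on ribosomal protein genes was 4.67% ± 0.673 against 4.73% ± 0.792 (SD, n = 6 mice, exact sign-flip p = 0.75), and that on the 50 highest genes of each cell 26.4% ± 3.77 against 26.8% ± 3.56 (SD, n = 6 mice, exact sign-flip p = 0.3125). With the cells of all mice in 4 bins of depth, *Myf5* was read in 68.4%, 73.4%, 71.3% and 76.6% of cells from the shallowest bin to the deepest. In 4 bins of genes detected it was read in 67.4%, 68.1%, 75.5% and 78.7%. These bins mix mice that differ in depth and in *Myf5*. Split at the median depth of their own mouse, 68.8% ± 9.47 of the shallower and 75.4% ± 13.7 of the deeper cells had a read (SD, n = 6), more among the deeper in 4 of 6 mice. Split at the median of genes detected, the shares were 69.7% ± 5.87 and 74.5% ± 16.2, more among cells with more genes in 5 of 6 mice.

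**Figure D2:**
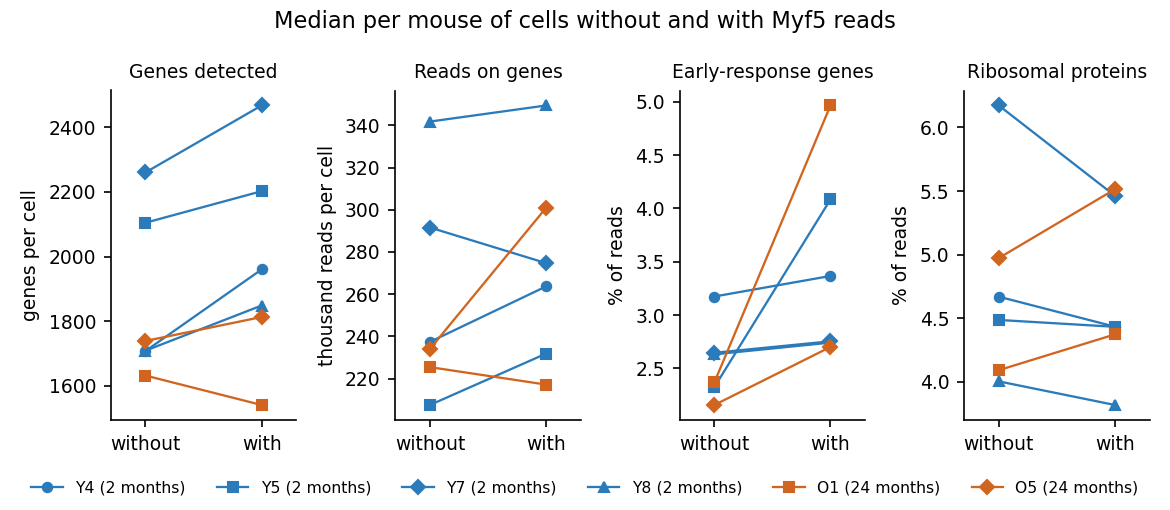
Median over cells without and with Myf5 reads in each mouse (lines join the groups of a mouse, young in blue, old in orange) for genes detected, reads on genes in units of 1000, percent of reads on early-response genes and percent of reads on ribosomal protein genes. Genes detected were higher with Myf5 in every mouse but O1, the early-response share was higher in all 6, and ribosomal protein reads were lower in the 4 young and higher in the 2 old mice.

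Across genes, no difference between the groups passed the threshold. Summing the reads of each group within a mouse gave 12 sums of 2196665 to 21235967 reads. Genes read in 10% or more of the cells, 5898 without *Myf5*, were tested with the mouse as a block. By edgeR's quasi-likelihood test 0 of the 5898 genes (0%) had a Benjamini-Hochberg adjusted p under 0.05, and the smallest adjusted p was 0.642. At an unadjusted p under 0.05 stood 119 genes with the higher level in *Myf5* cells (2.02% of genes tested) and 69 with the lower (1.17%). limma on mean log2 levels also gave 0 genes, with 417 below 0.05 before adjustment. With DESeq2 the 12 sums gave 90 genes, 75 higher with *Myf5* (1.27%) and 15 lower (0.254%). Of these 90, 38 had 1 direction in all 6 mice and 58 had an unadjusted p under 0.05 in edgeR.

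Several quantities per gene are used below. The level in a sum is given as CPM (counts per 1000000, after scaling between sums). The mean level is the average over cells of log2(RPM + 1), in which each cell has equal weight and a cell without a read counts as 0. A difference on this scale can be larger or smaller than the log2 fold change of the sums. For *Junb* the 2 values were 1.96 and 0.74, and for *Ctgf* -0.47 and -2.51. The detected share is the percentage of cells with at least 1 read. Over the 5898 genes the median log2 fold change between sums, with over without *Myf5*, was 0.23, and in cells matched on genes detected, in equal numbers per group, it was -0.02. The median difference in mean log2 level was 0.05, and in matched cells -0.02. In all cells more genes therefore lay above 0 than below, and counts of list members above 0 are to be read with this. In the sums 143 genes (2.42%) were higher with *Myf5* in 6 of 6 mice and 89 (1.51%) lower. In mean level the counts were 143 (2.42%) and 86 (1.46%), and in detected share 137 (2.32%) and 62 (1.05%). Counts for gene lists are to be read against these shares.

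The gene with the smallest p among those higher with *Myf5* was *Nr4a1*, an orphan nuclear receptor induced within minutes of stimulation. Its level in the sums ranged over mice from 374 to 3419 CPM, with a median of 1697, in *Myf5* cells, and from 61.9 to 1217, with a median of 893, in cells without. The ranges overlapped between mice, but within each of the 6 mice the *Myf5* cells were higher. The log2 fold change was 1.59 ± 0.26 (SE), a 3.00-fold difference, at an edgeR adjusted p of 0.642 and a DESeq2 adjusted p of 3.2e-05. The mean log2 level was higher by 2.26 ± 1.28 (SD, n = 6 mice), with the least difference in O5 (0.79) and the greatest in O1 (4.49). *Nr4a1* was detected in 59% ± 16 of *Myf5* cells and in 42.1% ± 12.3 of the others (SD, n = 6), higher in 6 of 6 mice. Among cells matched within each mouse on genes detected (94 per group) it was the 1 gene that passed the edgeR threshold, with a log2 fold change of 1.61, while it was detected in 54.5% ± 27.5 against 41.2% ± 12.9 of cells, higher in 3 of 6 mice and lower in 2.

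Other early-response genes stood with it. Of the 37 genes tested from a list of immediate-early and stress genes, 29 had a difference in mean level above 0 and 8 below, with a median difference of 0.60 against 0.05 over all genes. In mean level 6 of the 37 were higher with *Myf5* in all 6 mice, namely *Fos*, *Junb*, *Zfp36*, *Btg2*, *Nr4a1* and *Id3*, and 0 were lower, where all genes gave 2.42% and 1.46%. At an unadjusted edgeR p under 0.05 stood 10 higher and 1 lower, and 0 passed after adjustment. *Fos* and *Junb* encode subunits of the AP-1 transcription factor. *Junb* had a mean log2 level of 6.83 to 8.64 over mice (median 8.13) in *Myf5* cells and of 4.53 to 7.33 (median 6.19) in the others. In the sums it was higher in 6 of 6 mice, with a log2 fold change of 0.74 ± 0.25 (SE, edgeR adjusted p = 0.997). *Fos* had a mean log2 level of 6.19 to 7.86 with *Myf5* and 3.64 to 6.08 without, so the 2 ranges did not overlap. In the sums *Fos* was higher in 4 of 6 mice only, with a log2 fold change of 0.69 ± 0.30 (SE). In matched cells the log2 fold change of *Junb* was 0.44 and that of *Fos* 0.38. *Zfp36*, which encodes a protein that destabilises AU-rich transcripts, was detected in 76.8% ± 3.66 against 60.9% ± 7.19 of cells, higher in 6 of 6 mice. *Btg2*, an antiproliferative gene, was detected in 60.4% ± 8.65 against 43.8% ± 7.85, and *Atf3* in 63.6% ± 7.38 against 43.5% ± 12.9 of cells, each higher in 6 of 6 mice. In matched cells *Zfp36* and *Atf3* were detected more often with *Myf5* in 6 of 6 mice and *Btg2* in 4, with a log2 fold change of 0.27 for *Btg2* against 0.66 in all cells. The exact sign-flip p of these 3 detected shares in all cells was 0.031, the smallest possible, and the adjusted p over all genes was 0.819. *Egr1*, the highest of the list in CPM, had a mean log2 difference of 1.56 ± 1.69 (SD, n = 6), higher in 5 of 6 mice. *Hsp90aa1*, the other gene with the highest CPM of the list, differed by 0.10 ± 1.17.

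The list was not uniform. *Dusp1*, a phosphatase that inactivates MAP kinases, had a log2 fold change of -0.63 and was lower with *Myf5* in 5 of 6 mice, and *Btg1*, *Myc* and *Cebpb* had log2 fold changes of -0.01, 0.00 and -0.13. Summed over the list, early-response genes took a median of 2.70 to 4.97% of reads over mice in *Myf5* cells and 2.16 to 3.17% in the others, higher in 6 of 6 mice. The widest gaps were in O1 (4.97 against 2.37%) and Y5 (4.08 against 2.32%), and the narrowest in Y7 (2.75 against 2.65%) and Y8 (2.74 against 2.63%). The number of genes detected was higher as well in 5 of these mice and lower in O1. Its part in the early-response share was not tested beyond the matching of cells. Matching cells on genes detected left the median mean log2 difference of the list at 0.55, with 26 of 37 genes above 0, and thinning left it at 0.56.

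**Figure D3:**
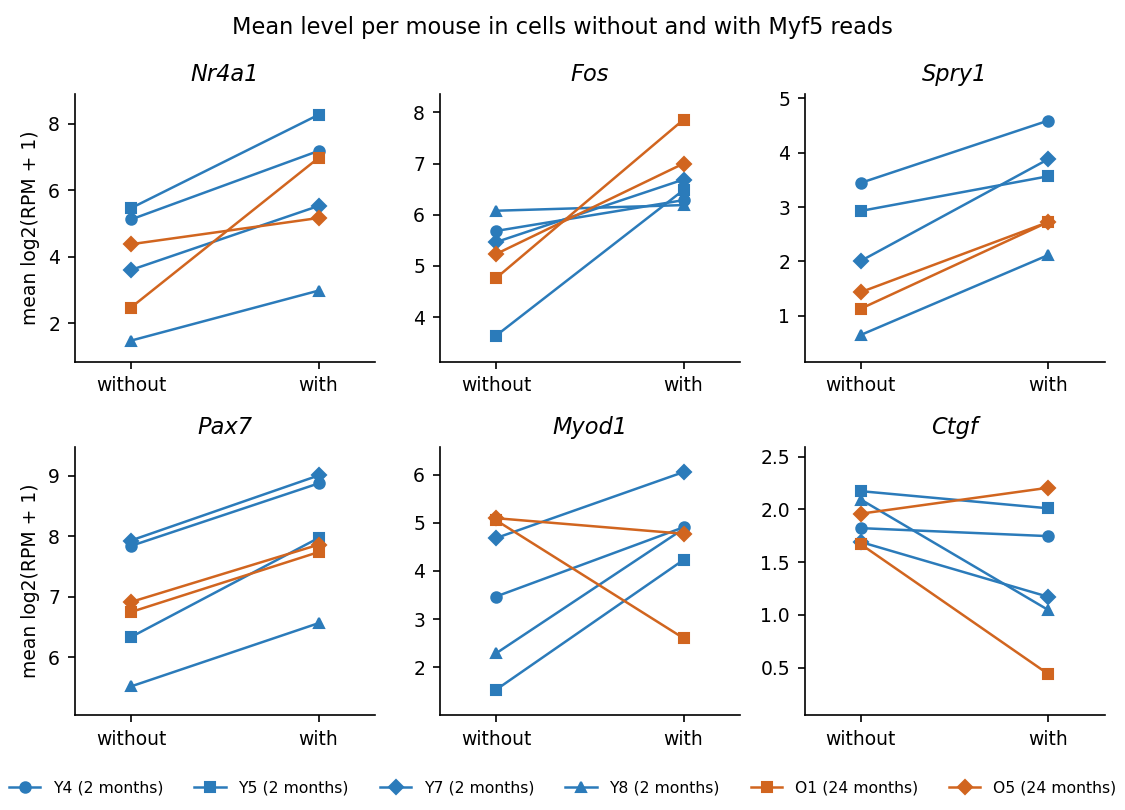
Mean log2(RPM + 1) over cells without and with Myf5 reads, 1 line per mouse (young in blue, old in orange), for 6 genes. Nr4a1, Fos, Spry1 and Pax7 were higher with Myf5 in all 6 mice, Myod1 was higher in the 4 young and lower in the 2 old mice, and Ctgf was lower in 5.

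The 5 genes whose level followed *Myf5* most closely from cell to cell were *Spry1*, *Junb*, *Nr4a1*, *Id3* and *Fos*, by the mean over mice of the Spearman correlation of RPM across the 44 to 75 cells of a mouse. The mean rho was 0.249, 0.227, 0.225, 0.207 and 0.193. These are weak values in sparse counts from shared libraries, and 95% of the 5898 genes lay below 0.095. Among *Myf5* cells alone, which leaves out the split into groups, the mean rho of *Spry1* was 0.218 and ranged over mice from -0.03 to 0.40. Those of the other 4 lay between 0.120 and 0.156. In these cells 95% of the 5898 genes lay below 0.106, and the highest mean rho was 0.238, above that of *Spry1*.

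The sequences before the starts of *Myf5* and of *Nr4a1*, *Fos* and *Junb* are shown because these 3 immediate-early transcription factor genes were among the 5 whose levels followed *Myf5* most closely. Each run is the 250 bases before the RefSeq transcript start (GRCm38.p6), 5′ to 3′ on the strand of the gene. Capitals mark TGACG, the 5-letter part of the cAMP response element, or its complement CGTCA.
Myf5 (chr10:107486135-107486384, minus strand): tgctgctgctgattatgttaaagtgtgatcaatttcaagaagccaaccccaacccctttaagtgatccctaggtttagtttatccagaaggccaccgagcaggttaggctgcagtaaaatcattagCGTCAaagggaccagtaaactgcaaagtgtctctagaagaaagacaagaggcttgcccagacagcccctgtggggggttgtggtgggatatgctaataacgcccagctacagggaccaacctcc
Nr4a1 (chr15:101266596-101266845, plus strand): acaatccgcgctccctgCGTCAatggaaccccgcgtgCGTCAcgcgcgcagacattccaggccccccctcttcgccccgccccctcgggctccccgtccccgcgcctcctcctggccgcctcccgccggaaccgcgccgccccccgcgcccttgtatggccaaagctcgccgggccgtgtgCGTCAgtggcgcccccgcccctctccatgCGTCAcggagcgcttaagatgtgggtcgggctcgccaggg
Fos (chr12:85473640-85473889, plus strand): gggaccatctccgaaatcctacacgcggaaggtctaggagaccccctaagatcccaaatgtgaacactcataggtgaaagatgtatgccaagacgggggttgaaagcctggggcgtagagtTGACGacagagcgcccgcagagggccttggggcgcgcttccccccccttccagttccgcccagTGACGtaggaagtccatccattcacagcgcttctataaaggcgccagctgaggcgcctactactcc
Junb (chr8:84978749-84978998, minus strand): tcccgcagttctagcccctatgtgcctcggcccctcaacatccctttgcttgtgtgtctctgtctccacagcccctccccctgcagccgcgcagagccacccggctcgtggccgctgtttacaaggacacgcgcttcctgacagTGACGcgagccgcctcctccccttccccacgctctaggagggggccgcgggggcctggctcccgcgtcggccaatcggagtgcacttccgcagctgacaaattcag
The 5-letter motif, searched on both strands, occurred 4 times before *Nr4a1*, 2 times before *Fos*, and 1 time before each of *Myf5*, *Junb* and *Id3*, and was absent from the window of *Spry1*. It was present in 17.8% of 32851 promoters of the same length. The whole element TGACGTCA, with which it overlaps, was in 1.55% of them and in 0 of these 6. The E-box CANNTG, the motif of basic helix-loop-helix factors, was in 66.2% of promoters, and in the windows of *Spry1*, *Fos* and *Junb* but not of *Myf5*, *Nr4a1* and *Id3*. These matches describe letters in a window and say nothing of binding.

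Transcripts of stem cell identity were next. Of 26 genes tested from a list of 31, 19 had a difference in mean level above 0 and 7 below, with a median of 0.24 against 0.05 over all genes, and 3 were higher in 6 of 6 mice (*Pax7*, *Fgfr4* and *Spry1*) and 0 lower. In cells matched on genes detected the median of the list was 0.11, with 16 of 26 above 0. None passed the edgeR threshold, and 3 had an unadjusted p under 0.05, all of them higher (*Spry1*, *Calcr* and *Chodl*).

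*Pax7*, the paired-box factor that specifies satellite cells, was higher with *Myf5* in mean level in every mouse. Its mean log2 level ranged over mice from 6.56 to 9.0 (median 7.92) in *Myf5* cells and from 5.52 to 7.93 (median 6.83) in cells without. The ranges overlapped because mice differed, yet within each mouse the difference lay between 0.95 and 1.63, with a mean of 1.12 ± 0.26 (SD, n = 6). *Pax7* was detected in 92.2% ± 6.23 of *Myf5* cells and 82.2% ± 5.49 of the others, higher in 6 of 6 mice both as counted and after thinning (exact sign-flip p = 0.031, adjusted 0.819). In matched cells it was detected in 90.5% ± 6.64 against 82.4% ± 7.08, higher in 5 of 6 mice and lower in 0. In the sums, where cells with many reads weigh most, *Pax7* was higher in 5 of 6 mice, with a log2 fold change of 0.51 ± 0.23 (SE, edgeR adjusted p = 0.997). Every cell had passed a sort on the *Pax7* reporter.

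*Spry1*, an inhibitor of receptor tyrosine kinase signalling that supports the return of satellite cells to quiescence, was detected in 41.6% ± 10.2 of *Myf5* cells and 23.6% ± 15 of the others, higher in 6 of 6 mice. Its sums held 150 to 250 CPM (median 201) with *Myf5* and 35.6 to 209 (median 102) without. The log2 fold change was 1.06 ± 0.39 (SE, edgeR adjusted p = 0.997, DESeq2 adjusted p = 0.184). In matched cells it was 0.58, and *Spry1* was detected in 36.8% ± 13.9 against 22% ± 15.4 of cells, higher in 5 of 6 mice. *Calcr*, the calcitonin receptor gene, held 214 to 828 CPM (median 318) with *Myf5* and 32.4 to 282 (median 76) without, higher in 5 of 6 mice. Its log2 fold change was 1.98 ± 0.62 (SE, edgeR adjusted p = 0.997, DESeq2 adjusted p = 0.025), and it was detected in 40.9% ± 5.83 against 27.2% ± 13.7 of cells. *Cdh15*, which encodes M-cadherin, was detected in 58.2% ± 13.3 against 46.9% ± 12.7, higher in 6 of 6 mice (5 of 6 in matched cells), with a log2 fold change of 0.49 ± 0.34 (SE).

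The most abundant identity transcripts were detected in nearly every cell of both groups. *Sdc4*, a heparan sulphate proteoglycan, was detected in 99.7% of *Myf5* cells and in 100% of the others, with a log2 fold change of -0.10 ± 0.10 (SE). *Chodl*, a lectin-like membrane protein gene, was detected in 96.0% against 99.4% of cells, lower in 5 of 6 mice, while its sums gave a log2 fold change of 0.40 ± 0.16 (SE). *Vcam1*, a cell adhesion gene used to isolate satellite cells, was detected in 72.3% ± 12.2 against 78.5% ± 16.3, with a log2 fold change of -0.17 ± 0.27 (SE). *Fgfr4* differed in direction between scales, with a mean level higher by 0.71 ± 0.61 (SD, n = 6) and a log2 fold change of -0.10 ± 0.20 (SE) in the sums.

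**Figure D4:**
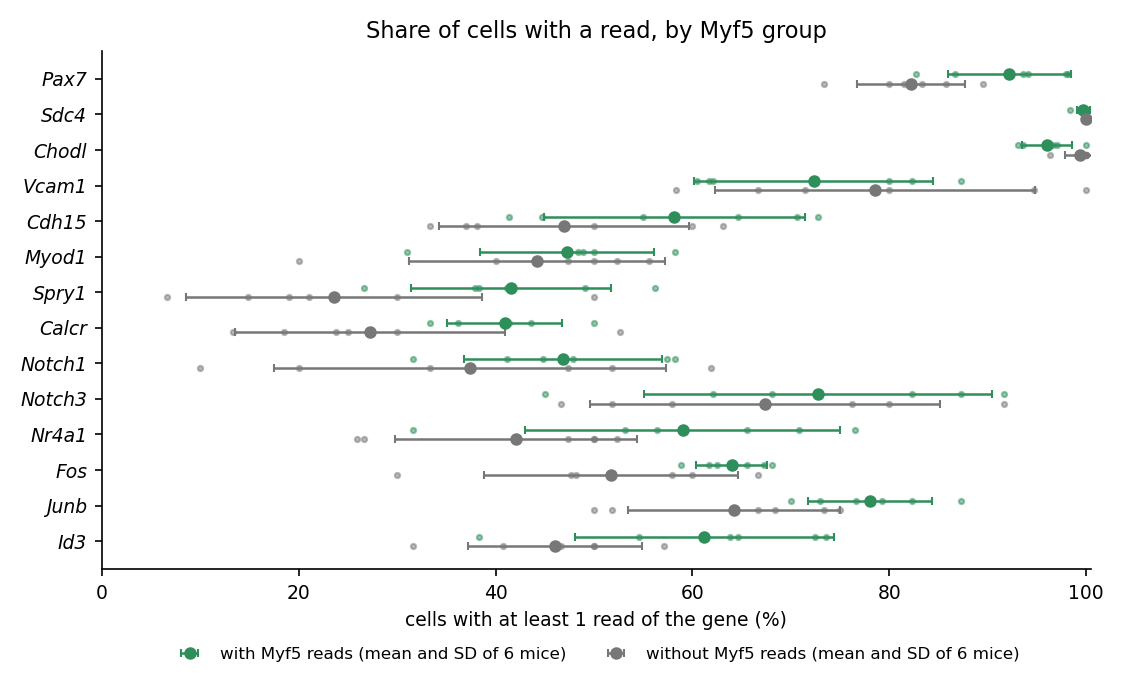
Percentage of cells with at least 1 read of each gene in cells with (green) and without (grey) Myf5 reads, with small points for the 6 mice and the mean and SD over mice. Pax7, Spry1, Cdh15 and Nr4a1 were higher with Myf5 in all 6 mice, whereas Sdc4 and Chodl were near 100% in both groups.

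The Notch pathway, which holds satellite cells in quiescence, had more members above 0 than below. Of 11 genes tested from a list of 20, 10 had a difference in mean level above 0 and 1 below. The median was 0.45 against 0.05 over all genes (0.39 in matched cells, with 7 of 11 above 0). None was higher in mean level in all 6 mice. The summed level of the list was higher with *Myf5* in 6 of 6 mice, at 1302 to 3715 RPM (median 2250) against 486 to 2978 (median 1470). Among the receptors, *Notch3* held 204 to 881 CPM against 120 to 648 and was higher in 6 of 6 mice, with a log2 fold change of 0.60 ± 0.18 (SE). *Notch1* held 206 to 1633 CPM (median 419) against 65.7 to 1918 (median 147), higher in 5 of 6 mice. The log2 fold change of *Notch1* was 1.19 ± 0.33 (SE, edgeR adjusted p = 0.997, DESeq2 adjusted p = 0.031). In mean log2 level *Notch1* was higher in the 4 young and lower in the 2 old mice, and *Notch3* higher in 5 and lower in 1. In detected share *Notch1* was higher in 4 mice and lower in 2, and *Notch3* higher in 3 and lower in 2. Of the target genes, *Heyl* was detected in 45.6% against 34.1% of cells and *Hey1* in 15.4% against 6.50%, each higher in 5 of 6 mice. The ligands *Dll1*, *Dll4* and *Jag2* were read in 4, 1 and 3 cells in all, and *Jag1* in 110.

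Of the other myogenic regulatory factors, only *Myod1* was common enough to test. *Myf6* was read in 2 cells, both with *Myf5*, and *Myog*, the factor of differentiating myocytes, in 0 cells of either group. The genes of differentiation and fusion were likewise near 0, with *Tmem8c*, *Myh3*, *Actc1* and *Tnnt2* read in 0 cells. *Myod1*, the determination factor whose transcript also marks early activation, was detected in 47.3% ± 8.88 of *Myf5* cells and 44.2% ± 13 of the others (exact sign-flip p = 0.688). Its sums held 283.5 to 1625 CPM (median 839) against 74.2 to 1285 (median 655), with a log2 fold change of 0.78 ± 0.37 (SE, edgeR adjusted p = 0.997). In cells matched on genes detected the log2 fold change of *Myod1* was 0.15 and the difference in mean log2 level 0.09, against 0.89 in all cells.

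For *Myod1* the direction in mean log2 level, though not in the sums, divided the mice by age. In young mice the difference in mean log2 level was 1.44 (Y4), 2.70 (Y5), 1.37 (Y7) and 2.59 (Y8), and in old mice -2.45 (O1) and -0.32 (O5). On this scale cells with *Myf5* had the higher *Myod1* level in each young mouse and the lower in each old one. In the sums *Myod1* was higher with *Myf5* in 5 of 6 mice, old mouse O5 included (1169 against 969 CPM), and lower in O1 (708 against 1285). In O1 *Myod1* was detected in 31% of the 29 cells with *Myf5* and 55.6% of the 27 without. In Y5 the shares were 47.1% of 34 and 20% of 10 cells. The test of the difference between ages did not pass, with an interaction of -1.61 in log2 fold change (old minus young, unadjusted p = 0.022, edgeR adjusted p = 1.0, DESeq2 adjusted p = 0.198). Over all genes, 170 (2.88%) were higher with *Myf5* in every young mouse and lower in both old ones, and 43 (0.729%) the reverse. By edgeR 0 genes (0%) had an interaction with age at an adjusted p under 0.05 (210 at an unadjusted p under 0.05), and by DESeq2 67 (1.14%).

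Genes known to act on *Myf5* in muscle stem cells were for the most part sparse. Of 15, 8 were tested, 5 with a mean level difference above 0 and 3 below, with a median of 0.19. In matched cells 4 of 8 were above 0, with a median of 0.07, and the median log2 fold change of the list turned from 0.35 to -0.44. *Pax7* was the 1 with the same direction in all 6 mice. *Carm1*, the arginine methyltransferase that modifies *Pax7* protein, was detected in 13.8% against 11.7% of cells, with a log2 fold change of 0.30 ± 1.07 (SE). Of the methyltransferase complex recruited by *Pax7*, *Wdr5* had a log2 fold change of -0.37 ± 0.71 (SE), *Mll1* (now *Kmt2a*) of -1.49 ± 0.54 (SE, lower in 5 of 6 mice, edgeR adjusted p = 0.997) and *Mll2* (now *Kmt2d*) of 0.40 ± 0.49 (SE), while *Ash2l* and *Rbbp5* were read in 36 and 21 cells. *Ctnnb1*, which encodes β-catenin, differed by 0.64 ± 0.33 (SE) in log2 fold change. *Fmr1*, the RNA-binding protein gene linked to *Myf5* transcript storage, differed by -0.41 ± 0.48, and *Eif2ak3*, a kinase that phosphorylates eIF2α, was read in 11 cells. Of the Hedgehog effectors *Gli2* was detected in 15.5% against 8.9% of cells, with a log2 fold change of 0.60 ± 0.62, and *Gli1* and *Gli3* were read in 17 and 19 cells. *Pax3* and *Six4* were read in 19 and 29 cells.

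Among genes lower with *Myf5*, the smallest p belonged to *Ctgf*, a secreted target of YAP and transforming growth factor β signalling. Its sums held 26 to 373 CPM (median 74.1) in *Myf5* cells and 115 to 1723 (median 479) in the others, lower in 6 of 6 mice. The log2 fold change was -2.51 ± 0.38 (SE), 5.69-fold lower with *Myf5*, with an edgeR adjusted p of 0.642 and a DESeq2 adjusted p of 8.3e-08. A few cells carried this value, since *Ctgf* was detected in 20.4% of *Myf5* cells and 20.9% of the others, and 1 of the 21 cells without *Myf5* that had it held 37.5% of that group's *Ctgf* reads. Its mean log2 level differed by -0.47 ± 0.58 (SD, n = 6) and was higher with *Myf5* in O5. *Gm15270*, which overlaps *Ctgf* on the opposite strand and cannot be told apart from it without strand, had a log2 fold change of -2.40 ± 0.53 (SE).

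*Slc7a1*, a cationic amino acid transporter gene, was detected in 19.8% against 23.1% of cells and had a log2 fold change of -3.54 ± 0.62 (SE, edgeR adjusted p = 0.704, DESeq2 adjusted p = 1.2e-07), with 32.3% of the reads of the group without *Myf5* in 1 cell. *Cd9*, a tetraspanin gene, was more widely detected, in 72.6% ± 18.8 against 80.2% ± 8.08 of cells, higher in 3 mice and lower in 3. Its sums held 258 to 974 CPM (median 491) against 481 to 1933 (median 949), lower in 6 of 6 mice. The log2 fold change of *Cd9* was -0.95 ± 0.22 (SE, edgeR adjusted p = 0.997, DESeq2 adjusted p = 0.016). *Elovl1*, a fatty acid elongase gene, and *Rbck1*, a ubiquitin ligase subunit gene, were detected in 18% and 15.5% of *Myf5* cells, against 19.1% and 24% of the others, and had log2 fold changes of -1.44 ± 0.35 and -1.81 ± 0.45 (SE), lower in 6 of 6 mice.

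Among genes higher with *Myf5* in all 6 sums, the smallest p after that of *Nr4a1* belonged to *Srp54b*, *Eml5*, *Gm11458*, *Per1* and *Dtx4*. *Per1*, a circadian repressor that is also an early-response gene, was detected in 30.7% ± 11.0 against 15.6% ± 8.37 of cells, higher in 6 of 6 mice (5 of 6 in matched cells). Its log2 fold change was 1.60 ± 0.40 (SE, edgeR adjusted p = 0.997, DESeq2 adjusted p = 0.015), with 52.8% of the reads of the group without *Myf5* in 1 cell. *Dtx4*, a Deltex ubiquitin ligase gene, was detected in 49.9% ± 17.6 against 32.3% ± 14 of cells and had a log2 fold change of 1.28 ± 0.33 (SE, DESeq2 adjusted p = 0.030). *Eml5*, *Srp54b* and *Gm11458* were low, with median sums of 30.3, 3.23 and 14.4 CPM in *Myf5* cells, and *Srp54b* has near-identical copies, which makes its counts uncertain.

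The remaining lists lay closer to all genes. Of 26 extracellular matrix genes tested 15 were above 0 and 11 below in mean level, with a median of 0.12 (-0.02 in matched cells, with 13 of 26 above 0). *Mmp2*, a gelatinase gene, was lower with *Myf5* in 6 of 6 mice, with a difference in mean log2 level of -0.74 ± 0.57 (SD, n = 6), and of -0.28 in matched cells. *Sparc* and *Thbs1*, the 2 genes of this list with the highest CPM, had log2 fold changes of 0.12 ± 0.13 and 0.36 ± 0.57 (SE). Of 10 cell cycle genes tested 9 were above 0, with a median of 0.14 against 0.05 over all genes (0.0025 and 6 of 10 in matched cells). None had 1 direction in all 6 mice. *Mki67* and *Top2a*, which mark cycling cells, were each read in 5 cells. *Cdkn1a* and *Cdk4* had log2 fold changes of 0.32 ± 0.30 and 0.16 ± 0.29 (SE). Of 25 translation factors 13 were above 0 and 12 below, with a median of 0.02 (-0.07 in matched cells), and *Eef1a1* and *Eef2* had log2 fold changes of 0.03 ± 0.09 and 0.24 ± 0.22 (SE). *Eif2s1*, which encodes eIF2α, the factor whose phosphorylation restrains translation in quiescent satellite cells, was detected in 21.6% ± 11.5 against 33.6% ± 11.5 of cells, lower in 6 of 6 mice (exact sign-flip p = 0.031, adjusted 0.819). In matched cells it was lower in 5 of 6 mice.

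Ribosomal protein genes had the lowest median of the lists. Of 82 tested, 30 had a mean level difference above 0 and 52 below, with a median of -0.07 against 0.05 over all genes (-0.11 in matched cells). In mean level 6 were lower in 6 of 6 mice (*Rpl34*, *Rpl9*, *Rps13*, *Rplp1*, *Rpl41* and *Rps27a*), where all genes gave 1.46%, and 0 were higher. The sizes were small, from -0.16 ± 0.12 for *Rplp1* to -0.71 ± 0.32 for *Rpl34* (SD, n = 6). The mean per cell of the summed list was lower with *Myf5* in 6 of 6 mice, at 39184 to 58515 RPM against 39903 to 62922. The median per cell, in contrast, was lower in the 4 young and higher in the 2 old mice, as in the plot of measures per cell. *Rps4x* and *Rplp0*, the 2 with the highest CPM, had log2 fold changes of -0.07 ± 0.11 and 0.00 ± 0.09 (SE).

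**Figure D5:**
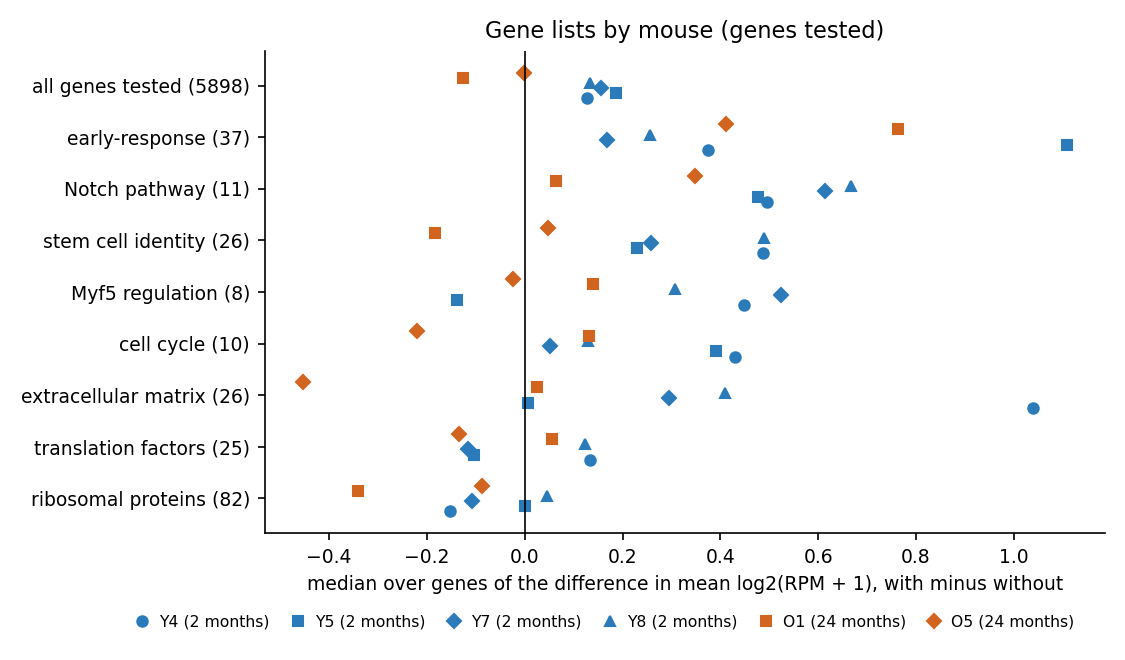
Median over the tested genes of each list of the difference in mean log2(RPM + 1), cells with minus cells without Myf5 reads, 1 point per mouse (young in blue, old in orange) and the number of genes in brackets. The early-response and Notch lists were above 0 in all 6 mice, while the ribosomal protein list reached from -0.34 in O1 to 0.04 in Y8.

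No gene of the lists for other cell types passed the threshold. *Gsn* and *Dpt*, the widely read genes of the fibro-adipogenic list, had log2 fold changes of 0.17 ± 0.15 and 0.04 ± 0.24 (SE). *Des*, of the mural list and also a gene of satellite cells, had 0.13 ± 0.24, and *Pmp22*, of the Schwann list, 0.03 ± 0.39. *Actn3* of the fibre list was read in 53 cells and *Ckb* of the differentiation list in 68, with log2 fold changes of 1.03 ± 1.2 and 0.18 ± 0.79. *Ttn* was read in 27 cells, *Tek* in 27, *Esam* in 3, *Csf1r* in 22, *Cd68* in 15, *Mbp* in 4, *Mkx* in 8 and *Scx* in 13, in both groups.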

How the data were processed

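Messenger RNA of single sorted muscle stem cells was sequenced by scM&T-seq, which separates RNA from DNA of one cell, with Smart-seq2 chemistry and 25 amplification cycles. The series lists 768 samples, and the cells of the count table were used here. The deposited counts are raw reads per gene, made by the authors with HISAT2 on GRCm38 and SeqMonk after trimming, and the annotation release and use of strand were not given in the sources used here. The authors removed cells with few genes or few reads before deposit. The table held 25952 genes, of which 66 rows repeated a gene name, and no mitochondrial genes. Lane numbers in the column names put Y4, Y5 and Y8 on lane 3 and Y7, O1 and O5 on lane 2, so both groups of a mouse shared a lane. Between cells, 101755 to 626142 reads set the precision.

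Counts were summed per mouse and group, and genes read in 10% or more of the cells were tested with edgeR 4.0.16 (TMM scaling, quasi-likelihood test, mouse as block, Benjamini-Hochberg adjustment at 0.05) in R 4.3.3. The SE of a log2 fold change was its absolute size divided by the square root of the F statistic of that quasi-likelihood test. It therefore restates the test and is not a separate measure of spread over mice. DESeq2 1.42.0 on the sums and limma 3.58.1 on mean log2(RPM + 1), a pseudocount of 1, were alternatives. Shares and measures per cell were compared by exact two-sided sign-flip permutation over the 6 mice (scipy 1.17.1, Python 3.11.15). Scripts were tested on simulated data. Alternatives used cells thinned to 100000 reads, cells with at least 200000 reads, pairs of cells of a mouse within 100 detected genes of each other, other scalings and filters, no block, and subsets of mice. Both groups came from the same animals, which is where the pairing comes from, and the deviations of a mouse's groups from the group means correlated at 0.0799 to 0.198, highest with the own mouse in 6 of 6. P-values measure the spread between these mice.

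As no gene passed the threshold, the rule named the 6 genes a direction with the smallest unadjusted p and 1 direction in all sums, all members of the myogenic regulatory factor and *Myf5* regulation lists, the 2 genes with the highest CPM of each other list, and the 5 most correlated with *Myf5*. Further list members named in the text were chosen after their values were seen (*Calcr*, *Vcam1*, *Cdh15*, *Fgfr4*, *Atf3*, *Zfp36*, *Btg2*, *Dusp1*, *Btg1*, *Myc*, *Cebpb*, *Heyl*, *Hey1*, the Notch ligands, *Mmp2*, *Eif2s1*, the 6 ribosomal protein genes and absent markers). The groups and gene lists were chosen with earlier results of these data known. Members listed under older symbols were matched by RefSeq synonyms, and *Cebpd* was not found in the table. A few list members are not reported here and were left out of their lists.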

Additional observations from a re-analysis of the deposited data

Results flagged for a closer look

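In 4 of 79 sets of values from the 6 mice, or of young mice alone, 1 mouse stood apart from the others by Dixon's test at its 95% critical value, which chance gives in about 5% of sets. The mean log2 difference of *Pax7* between cells with and without *Myf5* reads was 1.63 in Y5 and 0.95 to 1.07 in the other 5 mice. That of *Eef2*, the elongation factor gene, was 2.03 in O1 and -0.42 to 0.39 in the others. *Actn3*, a gene of fast muscle fibres read in few cells, had 1.62 in Y4 and -0.12 to 0.32 elsewhere, and *Gm11458* 0.54 in Y7 and 0.16 to 0.27 elsewhere.

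For 9 of 75 measures every young mouse had 1 sign and both old mice the other. Over all 5898 genes tested, 2.88% were higher in mean level with *Myf5* in every young mouse and lower in both old ones. The reverse held for 0.729%. Some of the 75 measures belong to genes named after their values were seen. The 9 differences between ages were not tested on this scale, apart from the interaction of sums given for *Myod1*. The mean log2 difference of *Myod1* was 2.02 ± 0.72 (SD, n = 4) in young and -1.39 ± 1.5 (SD, n = 2) in old mice, a difference of -3.41. *Notch1* stood at 1.69 ± 0.73 and -0.61 ± 0.66 (old minus young -2.30), *Cdk4*, a cell cycle kinase gene, at 1.05 ± 0.73 and -0.80 ± 0.10 (-1.85), and *Thbs1*, a matrix gene, at 1.49 ± 0.88 and -1.51 ± 1.74 (-3.00). *Dpt* had 1.45 ± 1.48 and -1.14 ± 0.80 (-2.59), and *Carm1* 0.39 ± 0.28 and -0.64 ± 0.54 (-1.03). *Eef2* went the other way, at -0.25 ± 0.12 and 1.21 ± 1.15 (1.46). The difference in the share of reads on ribosomal protein genes was -0.296 ± 0.286 and 0.411 ± 0.183 percentage points (0.707). The median over all genes tested was 0.15 ± 0.03 and -0.06 ± 0.09 (-0.21). That median was -0.127 in O1 but -0.0016 in O5, so among old mice it lay clearly below 0 in O1 only. In the sums *Myod1* was higher with *Myf5* in O5 as well. Both old mice were on lane 2, with Y7 as the only young mouse there.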

How the results depend on the processing

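The count of genes past the threshold was 0 in the edgeR fit with the mouse as a block and 0 without the block, where 110 genes had an unadjusted p under 0.05. It was 90 with DESeq2 and 1 (*Nr4a1*) in cells matched on genes detected, and 0 under the other alternatives, including each mouse left out (0 to 0, with 173 to 203 genes at an unadjusted p under 0.05). For the interaction with age DESeq2 gave 67. Of the detected shares of the named genes, 10 had 1 direction in 6 of 6 mice. Over all genes tested, 2.32% were higher and 1.05% lower in 6 of 6 mice. Some named genes were chosen for 1 direction in all sums or after their values were seen, so this count is a description only. Counted afresh over the named genes, 8 had 1 direction after thinning and 9 at 200000 reads or more, not necessarily among those 10. In matched cells 2 had it, both among the 10 (*Zfp36* and *Atf3*). The last 2 alternatives were chosen after seeing the data, as was the split of cells at the median depth of their mouse. So were the alternatives for the 2 shares of reads that follow. The ribosomal protein share difference (-0.0605 percentage points) was 0.0374 in lane 2 and -0.181 to 0.0693 with a mouse left out, positive only without Y7. The share on the 50 highest genes (-0.445) was 0.360 at 200000 reads or more.

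Over 60 named genes and 21 alternatives, 1175 of 1256 log2 fold changes kept their direction and side of the threshold. A further 13 passed it (12 with DESeq2), and 68, in 20 genes, turned sign. No named gene had passed in the edgeR fit, and some were named for 1 direction in all sums. The share that kept both was thus partly fixed beforehand. In the edgeR fit the log2 fold changes of the 20 genes that turned lay between -0.17 and 0.60, and the cause was not tested. In matched cells these were *Carm1* (-0.44), *Mll2* (-0.18), *Gli2* (-0.76), *Cdk4* (-0.30), *Thbs1* (-0.89), *Sparc* (-0.053), *Ckb* (-0.37), *Pmp22* (-0.058), *Rps4x* (0.0011) and *Rplp0* (0.052). In lane 2 they were *Carm1* (-0.97), *Hsp90aa1* (-0.081), *Cdk4* (-0.24), *Sparc* (-0.13), *Eef1a1* (-0.050), *Dpt* (-0.28), *Pmp22* (-0.37) and *Rplp0* (0.024), and in lane 3 *Thbs1* (-0.038), *Ckb* (-1.06) and *Vcam1* (0.30). In young mice alone they were *Sdc4* (0.015), *Thbs1* (-0.063), *Eef2* (-0.040), *Ckb* (-0.34) and *Vcam1* (0.27). With cells of 200000 reads or more they were *Sdc4* (0.063), *Pmp22* (-0.028), *Rplp0* (0.066), *Fgfr4* (0.14) and *Rps13* (0.047). Without cells of 1 to 9 *Myf5* reads they were *Carm1* (-0.65) and *Rplp0* (0.026). Thinning turned *Dpt* (-0.0054) and *Rplp0* (0.044), and thinning with new groups *Dpt* (-0.028), *Rplp0* (0.091) and *Vcam1* (0.038). The lack of a filter on low genes turned *Sdc4* (0.011), *Rps4x* (0.035), *Rplp0* (0.11) and *Fgfr4* (0.012), library sizes alone *Rplp0* (0.022), and filterByExpr *Rplp0* (0.027). limma on mean levels turned *Chodl* (-0.0019), *Rplp0* (0.045) and *Fgfr4* (0.71). Without the replicate block *Thbs1* (-0.37), *Pmp22* (-0.12) and *Rplp0* (0.0040) turned, and no call changed. With a mouse left out, the log2 fold changes that turned sign ranged from -0.31 to 0.84 for *Carm1*, -0.15 to 0.61 for *Thbs1*, -0.050 to 0.059 for *Eef1a1*, -0.25 to 0.67 for *Ckb*, -0.12 to 0.25 for *Dpt*, -0.069 to 0.31 for *Des*, -0.24 to 0.33 for *Pmp22*, -0.027 to 0.026 for *Rplp0*, -0.20 to 0.027 for *Fgfr4* and -0.36 to 0.096 for *Vcam1*.

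Depth limits the split itself, since a cell without a read may hold *Myf5* below its limit of 3 reads. Thinned to 100000 reads and grouped again, the share of cells with *Myf5*, 72.1% as a mean over mice, was 67.8%, and it was 70.5 to 76.1% with a mouse left out.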
